A study of Mus musculus with 4 samples.

Results

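The genes described here encode the enzymes that make serine and carry its one-carbon units on folate. They were taken from the deposited expression table by symbol, from a list of 9: Phgdh, Psat1, Psph, Shmt1, Shmt2, Mthfd1, Mthfd1l, Mthfd2 and Aldh1l2. The table holds 16442 genes, and 8 of the 9 had a row in it. Aldh1l2, a mitochondrial formyltetrahydrofolate dehydrogenase, was not analysed here. The list was drawn up with results of these libraries in view, because Phgdh and Psat1 had leaned lower in the knockout. Differences between genotypes for these 8 genes are therefore given as a description. Where the number of them passing a threshold is printed, it stands beside the share of all genes and supports nothing.

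Poly(A) RNA was sequenced from leukaemia stem cells, the fraction of leukaemic cells able to restart the disease, isolated from the bone marrow of leukaemic C57BL/6 mice. The WT group was wild type. In the KO group Rreb1 was knocked out, the gene of a transcription factor with zinc fingers named for its binding to RAS-responsive elements. Each had 2 libraries, which the study calls biological replicates. The sources used here do not give the driver of the leukaemia, the deleted part of the gene, the age of the mice, or how many mice went into a library. The second KO library carries the genotype label Rreb2-KO, and the extraction text names tumour-associated macrophages, so libraries were grouped by their titles. Rreb1 itself stood at 5.24 and 6.57 FPKM in WT and at 6.10 and 6.93 FPKM in KO. FPKM is a read count scaled to the length of the exons and the depth of the library. The Rreb1 groups overlapped, a value over all exons cannot show the loss of a short part, and KO and WT below stand for the labels.

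Serine is made from a glycolytic intermediate in 3 steps, catalysed in turn by the enzymes that Phgdh, Psat1 and Psph encode. Serine hydroxymethyltransferase then splits serine into glycine and a one-carbon unit on tetrahydrofolate, in the cytosol (Shmt1) and in the mitochondria (Shmt2). The unit is oxidised in mitochondria by the Mthfd2 enzyme and released as formate by the Mthfd1l enzyme, and the trifunctional Mthfd1 enzyme takes formate up again in the cytosol. Dividing cells draw on these units for purines, thymidylate and methionine. The stress-response factor ATF4 and MYC, both transcription factors, are known activators of many of these genes.

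The promoters of the 4 genes whose KO libraries lay furthest below WT are printed, to show the DNA next to the starts of the transcripts that leaned the same way. Each line gives 180 bases from RefSeq on the strand of the gene (GRCm38.p6), 5′ to 3′. Bases inside exons annotated by GENCODE are left out, so the stretch ends 22 bases before the RefSeq start for Phgdh, 3 before it for Mthfd2 and next to it for Psat1 and Shmt2. Of the 2 RefSeq starts of Psat1 the upstream one is shown. Capitals mark CCAAT or its reverse complement, the letters of the CCAAT box, where they lie wholly in the stretch. Another CCAAT of Phgdh begins 23 bases before the start and is cut by the end of its stretch. Another of Psat1 lies 23 bases after the start shown.
Phgdh (chr3:98339991-98340170, minus strand): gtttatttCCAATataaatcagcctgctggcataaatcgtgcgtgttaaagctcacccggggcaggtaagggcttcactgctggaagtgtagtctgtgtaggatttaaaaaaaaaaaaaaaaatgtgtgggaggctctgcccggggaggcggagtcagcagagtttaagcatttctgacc
Psat1 (chr19:15925060-15925239, minus strand): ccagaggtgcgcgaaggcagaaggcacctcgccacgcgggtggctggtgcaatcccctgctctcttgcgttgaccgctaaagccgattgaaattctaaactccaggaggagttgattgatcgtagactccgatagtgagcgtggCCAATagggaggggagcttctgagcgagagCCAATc
Shmt2 (chr10:127522445-127522624, minus strand): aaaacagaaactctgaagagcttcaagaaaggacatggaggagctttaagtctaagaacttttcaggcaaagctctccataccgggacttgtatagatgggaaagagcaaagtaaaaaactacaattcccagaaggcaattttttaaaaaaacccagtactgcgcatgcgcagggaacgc
Mthfd2 (chr6:83317607-83317786, minus strand): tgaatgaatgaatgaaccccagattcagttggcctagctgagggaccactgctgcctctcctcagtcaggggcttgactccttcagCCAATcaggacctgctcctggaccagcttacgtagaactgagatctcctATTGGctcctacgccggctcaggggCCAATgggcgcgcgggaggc

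All 8 genes matched a RefSeq promoter window of 300 bases, from 250 before to 50 after the start, and Psat1 matched 2. Within these windows CCAAT, searched on both strands, was found for 6 of the 8 genes (Phgdh, Psat1, Psph, Shmt1, Mthfd1 and Mthfd2), or 6 of their 9 windows, since the second Psat1 window had none. Of all 32851 windows 37.4% held it. Shmt2 and Mthfd1l had none, so the letters did not divide the genes that leaned lower from the others. The motif was chosen after the windows had been read. TGATGNAA, the core of the element bound by ATF4 with C/EBP factors, was in the windows of 0 of the 8 genes and in 3.97% of all windows. The E-box CACGTG bound by MYC was in 0 of the 8 and in 7.15% of all windows. CCACCCC, a C-rich run of the kind found in RAS-responsive elements, was in the Shmt1 window alone among the 8 genes, and in 15.1% of all windows. None of these 4 motifs overlaps another in a member window, and a match or its absence says nothing of binding.

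Depth was 16590830 to 18451251 assigned reads per library, and the 8 genes had 367 to 7992 reads each in a library. Counting error at the fewest reads was 5.22% for Psph and 1.39% to 2.91% for the other 7 genes, and it covers sampling of reads only. The library labels do not say that replicates were separate mice, so the spread between them may be partly technical. Markers of stem and leukaemia cells were present, with Hoxa9 at 28.9 to 35.8, Meis1 at 10.8 to 11.9 and Cd34 at 49.8 to 71.5 FPKM over the 4 libraries. Myb was at 26.1 to 36.5, Flt3 at 17.7 to 28.2 and Kit at 3.65 to 7.36 FPKM. They did not all lean the same way. Mean Kit was 3.95 FPKM in WT and 7.26 in KO, against 27.2 and 18.6 for Flt3 and 69.9 and 50.2 for Cd34. Markers of other marrow cells also differed between the groups. Of 10 mature neutrophil markers tested 7 rose in KO and 0 fell, with summed levels of 1266 to 1292 FPKM in WT and 2927 to 3511 in KO. Of 5 macrophage markers tested 3 fell and 0 rose, with sums of 94.5 to 112 and 55.8 to 56.2 FPKM. Of 5 B cell markers tested 3 fell and 0 rose (sums 216 to 225 and 120 to 137 FPKM), and of 5 erythroid markers tested 4 rose and 0 fell (sums 69.0 to 75.5 and 334 to 411 FPKM). Of 5 monocyte markers tested 2 fell and 0 rose, with 4 below zero and Ly6c2 above. Their sums overlapped, at 690 to 767 FPKM in WT and 762 to 826 in KO. Ly6c2, at means of 538 and 675 FPKM, made up most of them. Of 5 mast cell, basophil and eosinophil markers 1 rose and 2 fell (sums 508 to 579 and 333 to 337 FPKM). The stem and leukaemia cell (6 tested), primary granule (4), T and NK cell (3) and stromal and endothelial (3) markers had 0 calls. In that order 4, 1, 2 and 3 of them had an unadjusted p below 0.05, and limma-voom called 3, 1, 1 and 1. The 3 stem and leukaemia cell markers called were Kit, higher in KO, and Cd34 and Flt3, lower. The calls are from limma on log2(FPKM + 1), at a Benjamini-Hochberg adjusted p below 0.05 over 11768 genes. Of all these genes 0.603% were called higher and 0.408% lower in KO. At an unadjusted p below 0.05 the shares were 11.4% and 9.35%. By limma-voom they were 3.16% and 2.82% of 11365 genes. Of the 22 marker calls 22 stood by limma-voom, 3 to 11 with 1 library left out and 0 with no filter on level, and all 22 kept their sign in these fits. No listed marker with a row was at 0 in all 4 libraries. The part these cells had in the enzyme levels was not tested, and in bulk RNA fewer cells of a type cannot be told apart from less RNA per cell.

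The 8 transcripts covered a wide range of levels. Shmt2 was the highest at a mean of 119.8 FPKM over the 4 libraries, above 95.7% of the 11768 tested genes. Phgdh, Psat1 and Mthfd2 followed at 48.3, 46.6 and 42.3 FPKM. Shmt1, Mthfd1l and Mthfd1 were lower, at 21.6, 21.5 and 18.5 FPKM, and Psph was the lowest at 6.10 FPKM, above 45.3% of tested genes. In this order the ranges of Shmt1 and Mthfd1l overlapped in both groups. Those of Phgdh and Psat1, and of Psat1 and Mthfd2, overlapped in KO and not in WT. The other 4 pairs of neighbours did not overlap in either group.

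**Figure D1:**
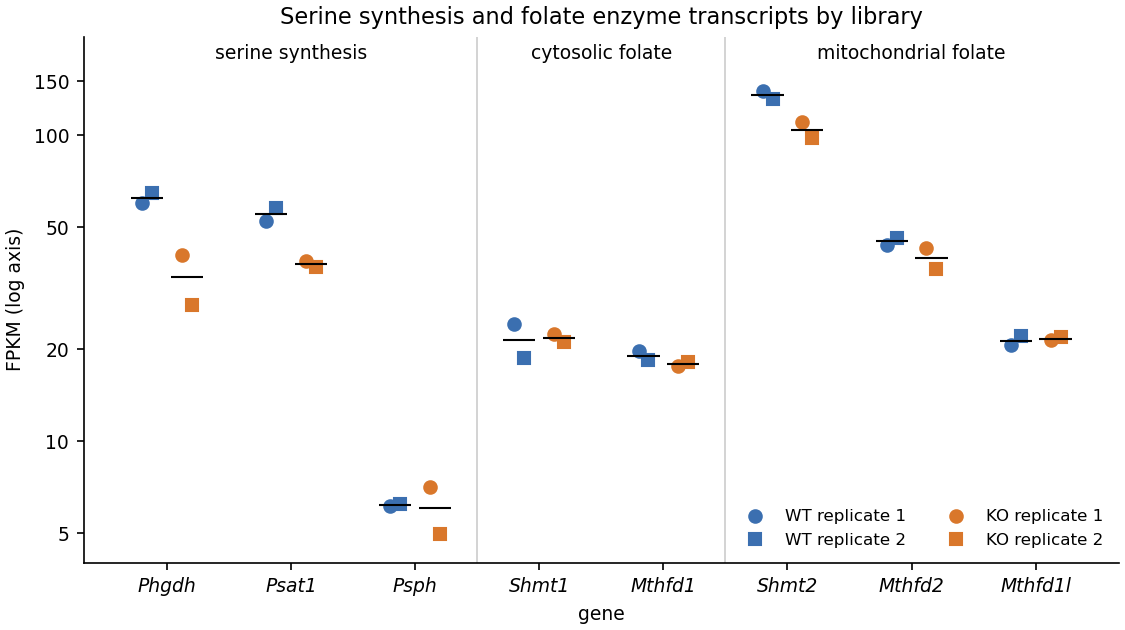
FPKM of each enzyme gene (log axis) in the 2 WT and 2 KO libraries, with a line at each group mean, ordered by role. The KO points lie clearly below the WT points for Phgdh, Psat1 and Shmt2, while those of Psph, Shmt1 and Mthfd1l overlap with WT.

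Phgdh, phosphoglycerate dehydrogenase, catalyses the first and committing step of serine synthesis (chromosome 3, 98313170 to 98339990, minus strand, GRCm38). It stood at 59.9 and 64.7 FPKM in WT and at 40.7 and 27.9 FPKM in KO. Both KO libraries were below both WT libraries, but the KO libraries also stood 1.46-fold apart from each other. The group means were 62.3 ± 3.43 and 34.3 ± 9.11 FPKM (SD, n = 2 in each group), a level 44.9% lower in KO. On the log2(FPKM + 1) scale used for all differences below, KO minus WT was −0.87 (SE 0.17, 95% limits −1.29 to −0.44). Among all tested genes 76 had a lower difference.

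Psat1, phosphoserine aminotransferase, carries out the second step and takes its amino group from glutamate (chromosome 19, 15904678 to 15947337, minus strand). Its levels were 52.3 and 58.0 FPKM in WT and 38.8 and 37.2 FPKM in KO. The KO libraries were close together and both lay below WT. The means of 55.1 ± 3.98 and 38.0 ± 1.16 FPKM differed by 31.1%, and the log2 difference was −0.52 (SE 0.088, 95% limits −0.74 to −0.31), with 277 tested genes lower.

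Psph, phosphoserine phosphatase, completes the synthesis (chromosome 5, 129765558 to 129787449, minus strand). It was at 6.15 and 6.21 FPKM in WT and at 7.09 and 4.98 FPKM in KO. The KO libraries lay on either side of the WT pair, so the groups overlapped. The log2 difference was −0.05 (95% limits −0.43 to 0.34), and it was 0.17 without KO replicate 2. Its exons share 452 bases, 10.4% of their length, with Cct6a on the other strand, which was at 66.3 to 93.7 FPKM. The kit as described does not mark strand, so reads of the 2 genes cannot be told apart there. In WT, Phgdh exceeded Psph by a factor of 9.74 and 10.4, and in KO by 5.75 and 5.60. This ratio restates the choice of Phgdh and carries the same uncertainty as Psph.

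Shmt2, the mitochondrial serine hydroxymethyltransferase and main entry of serine carbon into the folate cycle in many dividing cells, lies on chromosome 10 (127517123 to 127522444, minus strand). It stood at 139 and 131 FPKM in WT and at 111 and 97.9 FPKM in KO. The groups did not overlap, and the means of 135 ± 5.62 and 104 ± 9.02 FPKM differed by 22.9%. The log2 difference was −0.37 (SE 0.097, 95% limits −0.61 to −0.14), with 607 tested genes lower. Its annotated exons share 32 bases with Ndufa4l2 on the other strand.

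Mthfd2, the mitochondrial methylenetetrahydrofolate dehydrogenase (chromosome 6, 83305691 to 83325908, minus strand), was at 43.8 and 46.3 FPKM in WT and at 42.7 and 36.6 FPKM in KO. Both KO values were below WT, the first of them by little. The log2 difference was −0.18 (SE 0.10) and its 95% limits, −0.43 to 0.06, included 0. It was −0.29 without KO replicate 1 and −0.08 without KO replicate 2. Mthfd1l, the mitochondrial formyltetrahydrofolate synthetase (chromosome 10, 3973118 to 4167081, plus strand), was at 20.6 and 22.0 FPKM in WT and at 21.5 and 21.8 FPKM in KO. Its KO values lay inside the WT range, with a log2 difference of 0.02 (95% limits −0.18 to 0.23). That sign turned to −0.01 with the libraries shifted to the same median.

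Shmt1, the cytosolic hydroxymethyltransferase (chromosome 11, 60788104 to 60811718, minus strand), was at 24.2 and 18.8 FPKM in WT and at 22.4 and 21.1 FPKM in KO. Here the WT libraries were the ones apart, and both KO values fell between them. The log2 difference was 0.03 (95% limits −0.29 to 0.34) and turned to −0.01 with the libraries shifted to the same median. Mthfd1, which joins 3 folate activities in 1 cytosolic protein (chromosome 12, 76255298 to 76319803, plus strand), was at 19.7 and 18.4 FPKM in WT and at 17.6 and 18.2 FPKM in KO. The lower WT library and the higher KO library were nearly level. The log2 difference of Mthfd1 was −0.08 (95% limits −0.29 to 0.12).

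Phgdh and Psat1, 2 of the genes for which the list was drawn up, and Shmt2 had the lowest differences of the 8, and Psph did not follow the other genes of serine synthesis. Summed over the 3 genes of serine synthesis, the level was 118 and 129 FPKM in WT and 86.7 and 70.0 FPKM in KO, or 36.6% lower. Over the 3 mitochondrial folate genes it was 204 and 199.7 FPKM against 175 and 156 FPKM, or 17.9% lower. Over the 2 cytosolic genes it was 43.9 and 37.2 FPKM against 40.1 and 39.3 FPKM, and these groups overlapped. The sums are carried by their most abundant genes, Phgdh and Psat1 in the first and Shmt2 in the second.

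**Figure D2:**
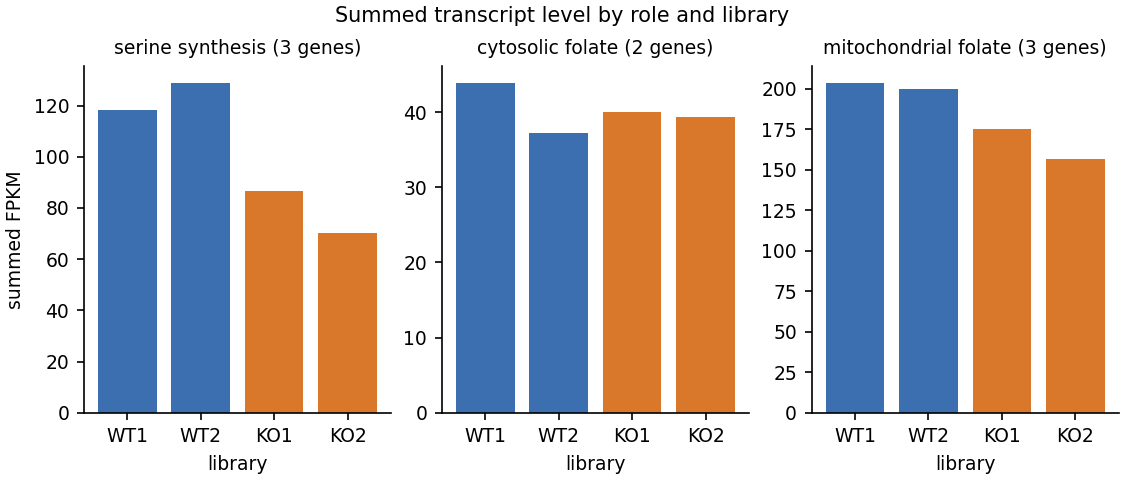
Summed FPKM of the genes of each role (bars from 0, each panel with its own scale) in every library, WT in blue and KO in orange. KO bars are lower for serine synthesis and mitochondrial folate genes, and for the cytosolic genes they stand between the WT bars.

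Transcripts of the mitochondrial and cytosolic forms were set against each other in each library. The ratio of Shmt2 to Shmt1 transcripts was 5.76 and 7.0 in WT and 4.94 and 4.63 in KO. Mitochondrial transcripts exceeded cytosolic ones in all 4 libraries. The ratio of Mthfd1l to Mthfd1 was 1.044 and 1.197 in WT and 1.216 and 1.2003 in KO. Mthfd1l, which releases formate, was thus above Mthfd1, which binds it, in every library. In WT replicate 1 they had 1684 and 1615 reads, an order near the counting error (2.48% and 2.72% at their fewest reads). The ratio of Mthfd2 to Mthfd1l was 2.126 and 2.103 in WT and 1.99 and 1.68 in KO.

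Replicate 2 of the KO group was below replicate 1 for 6 of the 8 genes and was the lowest of the 4 libraries for 5 of them, Phgdh, Psat1, Psph, Shmt2 and Mthfd2. Sizes therefore depended on which KO library was used. The share of all tested genes with KO replicate 2 below KO replicate 1 was not computed. Over these genes the median log2(FPKM + 1) was 3.04 in KO replicate 1 and 3.06 in KO replicate 2. Without KO replicate 1 the Phgdh difference was −1.13, and without KO replicate 2 it was −0.60. The median difference over the 8 genes was −0.13, and it was −0.28 without KO replicate 1 and −0.09 without KO replicate 2. The median over all tested genes was 0.03.

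With limma on log2(FPKM + 1), 0 of the 8 genes passed an adjusted p below 0.05 in either direction, where 1.01% of the 11768 tested genes did (0.408% lower and 0.603% higher in KO). Of the 8, 3 were lower and 0 higher at an unadjusted p below 0.05, where 9.35% of all tested genes were lower and 11.4% higher. By limma-voom on recovered whole reads 3 of the 8 (Phgdh, Psat1 and Shmt2) were called lower and 0 higher, where 5.97% of 11365 genes were called in either direction and 2.82% lower. The groups were apart for 5 of the 8, all with KO lower, where 55.3% of tested genes had groups apart and 24.9% had KO lower. Since the choice of these genes used this contrast, nothing is read from these counts.

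**Figure D3:**
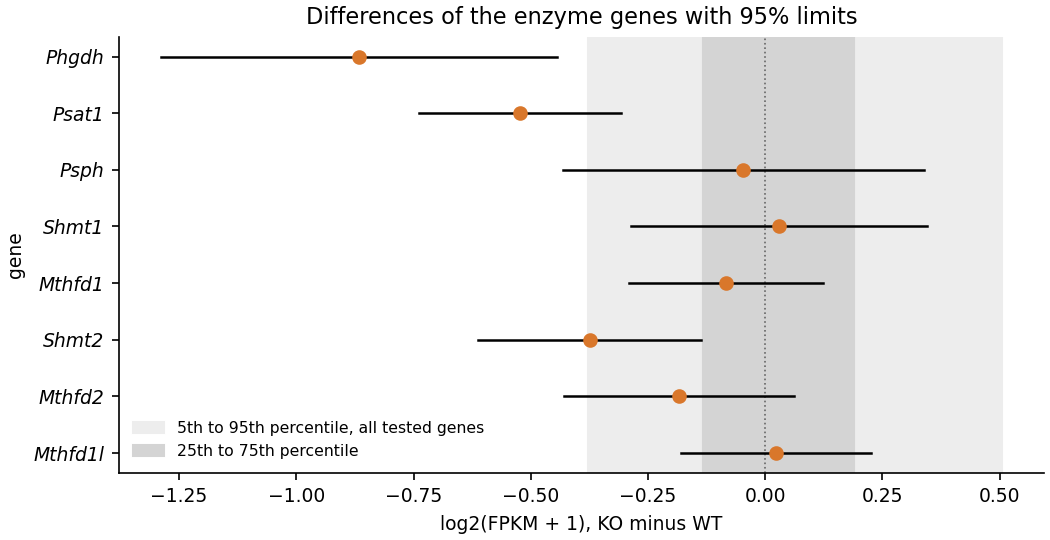
Difference in log2(FPKM + 1), KO minus WT, of each enzyme gene with its 95% limits from limma, over grey bands for the spread of all tested genes. Phgdh and Psat1 lie to the left of the band that runs from the 5th to the 95th percentile (−0.38 to 0.50), and Shmt2 lies at its edge.

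The wider pathway was followed through 10 lists of 105 further genes, of which 91 were in the table and 84 passed the filter of a mean of at least 1 FPKM. By limma 0 of the 84 rose and 0 fell at an adjusted p below 0.05. An unadjusted p below 0.05 was reached by 13 lower and 2 higher genes, against 9.35% and 11.4% of all tested genes. By limma-voom 6 of 82 were lower and 1 was higher, where 2.82% and 3.16% of all its genes were called lower and higher. The median difference of the 84 genes was −0.07, and 54 of them were below zero, where 46.0% of all tested genes were. Both KO libraries were below both WT libraries for 34 of them and above for 13, against 24.9% and 30.5% of all tested genes.

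Genes that bring folate into the cell and keep it there lay mostly below zero and 0 of 7 passed the test by limma. At an unadjusted p below 0.05 there was 1, Slc19a1, and limma-voom called the same gene lower. Slc19a1, the reduced folate carrier, was at 17.7 and 16.8 FPKM in WT and at 12.96 and 13.2 FPKM in KO (log2 difference −0.37, limma adjusted p = 0.111; limma-voom adjusted p = 0.033). The groups did not overlap and the replicates of each were close. Slc46a1, the proton-coupled folate transporter, had a mean of 2.78 FPKM in WT and 2.02 in KO, and Ggh, which trims the glutamate tail that holds folate in cells, 24.6 and 20.8 FPKM (limma adjusted p = 0.259 and 0.278). The Ggh difference of −0.23 was −0.36 without KO replicate 1 and −0.11 without KO replicate 2. Of the 7 tested genes 6 were below zero, with a median of −0.23.

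The glycine cleavage system, which frees a further one-carbon unit from glycine in mitochondria, had 2 tested genes. Gcsh, its lipoyl carrier protein, and Dld, a subunit shared with other dehydrogenases, had log2 differences of −0.24 and −0.21 (limma adjusted p = 0.245 and 0.254). In this list 0 genes had an unadjusted p below 0.05 and limma-voom called 0. Amt, its aminomethyltransferase, was at 0.20 to 0.37 FPKM over the 4 libraries and was not tested, so few of the complex's transcripts were measured at a level that allows a comparison. The remaining folate enzymes, 7 tested, had a median of 0.11, with 0 called by limma or limma-voom and 0 at an unadjusted p below 0.05. Tyms, which makes thymidylate, was at 37.1 and 33.4 FPKM in WT and at 40.7 and 36.2 FPKM in KO (log2 difference 0.12, limma adjusted p = 0.517). Its groups overlapped. Mthfs and Aldh1l1, which act on formyl folates, had differences of 0.17 and 0.14 at means of 1.13 and 2.60 FPKM in WT (limma adjusted p = 0.584 and 0.633). Mthfd2l, the close relative of Mthfd2, was at 0.54 to 0.73 FPKM in the 4 libraries, far below the 36.6 to 46.3 FPKM of Mthfd2.

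Purine synthesis consumes formyl folate at 2 of its steps. Of 13 tested genes 11 were below zero, with a median of −0.22, 7 at an unadjusted p below 0.05 and all of these lower, where 46.0% of all tested genes were below zero and 9.35% were lower at that p. By limma 0 were called. Prps1, which makes the ribose phosphate substrate, was at 79.7 and 82.4 FPKM in WT and at 63.3 and 59.1 FPKM in KO (log2 difference −0.40, limma adjusted p = 0.096). Pfas, a synthase midway in the pathway, was at 6.97 and 8.02 against 5.46 and 5.002 FPKM (−0.45, limma adjusted p = 0.131). Adsl, which splits off fumarate, stood at 20.04 and 20.5 against 15.8 and 13.6 FPKM (−0.44, limma adjusted p = 0.111). For all 3 the groups did not overlap, and limma-voom called these 3 lower (adjusted p = 0.024, 0.020 and 0.020). On the log2(FPKM + 1) scale their differences lay between those of Shmt2 and Psat1, an order that was not tested. The added 1 shrinks differences of genes at low levels such as Pfas. By its means Pfas was 30.2% lower in KO, against 31.1% for Psat1 and 22.9% for Shmt2.

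Genes of the methionine cycle, which takes a methyl group from folate, differed little. Of 7 tested genes 0 were called by limma or limma-voom and 0 had an unadjusted p below 0.05, with a median of −0.03. Mtap, which salvages methionine, and Mat2b, a regulatory subunit of the S-adenosylmethionine synthetase, had differences of −0.23 and −0.15 (limma adjusted p = 0.261 and 0.407). Gnmt, a glycine methyltransferase, had −0.22 at a mean of 1.87 FPKM in WT (limma adjusted p = 0.604). Transsulfuration, which passes serine to cysteine, was scarcely measured. Cth, its second enzyme, was at 0 to 0.063 FPKM, and Mpst, a sulfurtransferase, had a difference of 0.12 (limma adjusted p = 0.638) and was the only gene tested here.

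Transport and other uses of serine gave no called gene either. Slc1a5, a carrier of neutral amino acids, was at 177 and 190 FPKM in WT and at 200.2 and 191 FPKM in KO (log2 difference 0.09, limma adjusted p = 0.592). Its KO values were only just above WT. Slc38a2, another neutral amino acid carrier, had 0.14 and Sfxn3, of the sideroflexin family of mitochondrial serine carriers, −0.25 (limma adjusted p = 0.511 and 0.298). With 1 library left out these ran from 0.04 to 0.25 and from −0.38 to −0.13. Over 6 tested genes the median was −0.05. Slc1a4, a serine carrier below the filter, was at 0.65 and 0.60 FPKM in WT and at 0.26 and 0.06 FPKM in KO, and it was not tested and was chosen after its values were seen. Among 9 tested genes that place serine in lipids or break it down the median was −0.08. Serinc3 and Serinc1, membrane proteins named for serine incorporation, had −0.16 and −0.17, and Sptssa, a small subunit of serine palmitoyltransferase, −0.11 (limma adjusted p = 0.376, 0.385 and 0.543). In both lists 0 genes had an unadjusted p below 0.05 and limma-voom called 0.

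Among regulators, Atf4 mRNA was at 52.2 and 60.7 FPKM in WT and at 52.3 and 61.0 FPKM in KO, a log2 difference of 0.01 (95% limits −0.28 to 0.29, limma adjusted p = 0.983). Its sign turned to −0.03 with the libraries shifted to the same median. The amount of ATF4 protein is largely set by translation, which these mRNA values do not measure. Myc was at 170.2 and 170.6 FPKM in WT and at 156 and 132 FPKM in KO (log2 difference −0.25, limma adjusted p = 0.257). Both KO values were below WT and the second KO library was the lower, as it was for 6 of the 8 enzyme genes. A link between Myc and the enzyme levels was not tested. Without KO replicate 2 the Myc difference was −0.13. Sesn2 and Ddit3, stress genes that ATF4 activates, had −0.41 and −0.23 (limma adjusted p = 0.154 and 0.265). Over the 11 tested genes of this list the median was −0.09, with 6 below and 5 above zero. Highest was Eif2ak4, a kinase upstream of ATF4, at 0.35 (limma adjusted p = 0.269). Its values were 2.39 and 3.12 FPKM in WT and 3.36 and 4.23 FPKM in KO. At an unadjusted p below 0.05 there was 1 gene, Sesn2. By limma and by limma-voom 0 were called.

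Proliferation genes lay on both sides of zero. Of 21 tested, 11 were below and 10 above zero, with a median of −0.002, and the summed level was 1788 to 1789 FPKM in WT and 1698 to 1821 in KO. By limma 0 were called, and at an unadjusted p below 0.05 there were 4 lower and 2 higher. Mki67, a marker of cycling cells, was at 15.9 and 18.7 FPKM in WT and at 22.9 and 32.1 FPKM in KO (log2 difference 0.62, limma adjusted p = 0.143; 0.39 without KO replicate 2). The mitotic genes Ccnb1 and Plk1 lay the other way, at −0.39 and −0.38 (limma adjusted p = 0.118 and 0.120). By limma-voom Mki67 was higher and Ccnb1 and Plk1 lower (adjusted p = 0.022, 0.031 and 0.033).

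**Figure D4:**
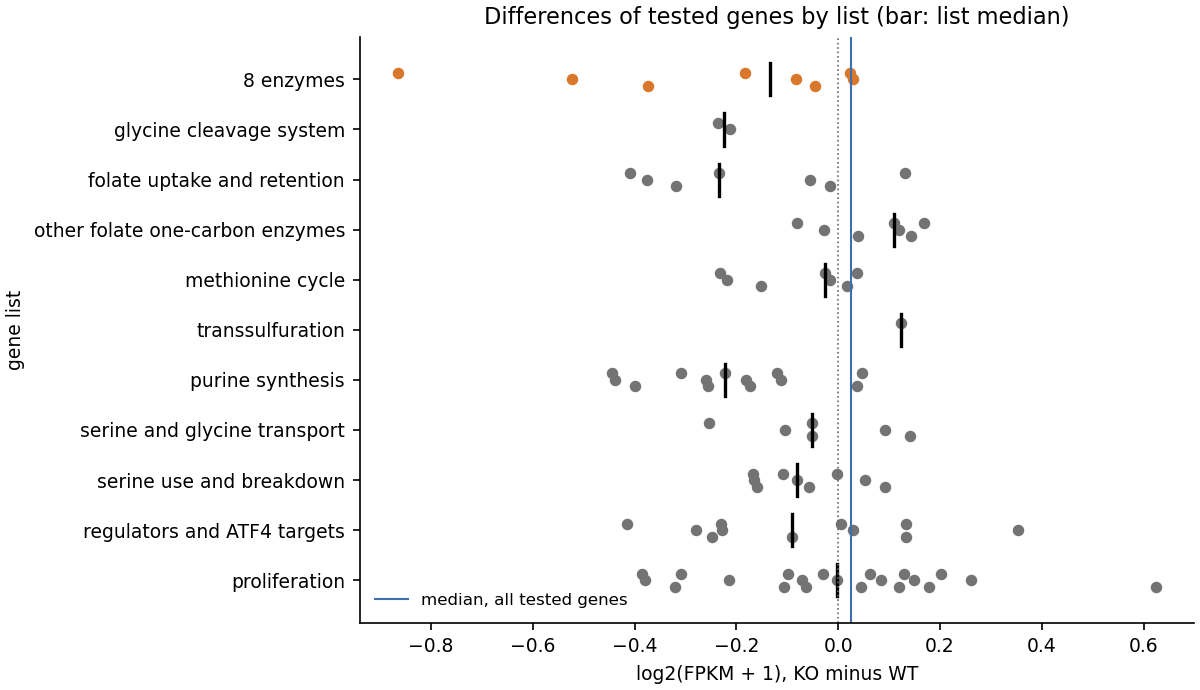
Difference in log2(FPKM + 1), KO minus WT, of each tested gene in the enzyme list (orange) and in the 10 surrounding lists (grey), with a bar at each list median and a blue line at the median of all tested genes. The medians of folate uptake (−0.23), purine synthesis (−0.22) and the 2 glycine cleavage genes (−0.22) lie below that of the 8 enzymes (−0.13), and those of the remaining folate enzymes (0.11) and proliferation (−0.002) do not.

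Likeness of pattern was measured as the root mean square difference between centred log2(FPKM + 1) values over the 4 libraries. Nearest to Phgdh were Ccl4, a chemokine (0.052), the histone gene H2aw (0.052) and Gm26597 (0.057). Ccl4 stood at 51.6 and 57.1 FPKM in WT and at 32.6 and 24.0 FPKM in KO, which also placed the second KO library lowest. Nearest to Psat1 were Gm43305 (0.014), the interferon gamma receptor chain Ifngr2 (0.014) and the peroxisomal enzyme gene Hsd17b4 (0.021). Ifngr2 was at 23.4 and 26.4 FPKM in WT and at 17.5 and 16.3 FPKM in KO. With 4 libraries many genes can share such a pattern, and none of the other 7 enzyme genes was among the 3 nearest to either.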

How the data were processed

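The values the authors deposited, for 16442 genes in 4 libraries, are FPKM with 1 added, scaled by exon length and assigned reads before deposit. This unit was inferred from the values, whose minimum is exactly 1, since no label names it; that 1 was subtracted. GRCm38 and the tools CASAVA, HISAT2 (2.1.0), featureCounts and DESeq2 are named, without roles, per the submitters' processing notes. Exonic lengths came from GENCODE M21 (GRCm38) by symbol, for 16003 genes. Within each library, 99.0% to 99.2% of low products of FPKM and length (up to 30 reads) were whole multiples of a common unit (tolerance 0.05), which gave the depths and whole reads for 15776 genes.

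KO and WT were compared with limma 3.58.1 (R 4.3.3), trend form, two-sided, on log2(FPKM + 1), for the 11768 genes whose mean reached 1 FPKM, with Benjamini-Hochberg adjustment at 0.05. The fit had 2 residual and 4.10 prior degrees of freedom; an exact permutation test of 2 against 2 cannot go below p = 0.333. limma-voom used recovered reads with TMM factors. The procedures were tested on simulated data with 200 changed genes and 1 assumed spread between replicates (overdispersion 0.005), which may differ from that of these libraries. Of 1.5-fold changes limma recovered 26.9% and limma-voom 65.7%. Of 2-fold changes they recovered 77.6% and 79.1%. Over 11365 genes they made 20 and 9 false calls. Replicates differed by more than read sampling alone (mean chi-square per gene 11.0 for WT and 13.1 for KO), so none was counted as the same library deposited again; this does not show that they came from separate mice.

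The members and lists were chosen with earlier results of these data known. Named were the 8 members, Rreb1, up to 3 genes per list by smallest p, Atf4, Myc, and the 3 genes nearest to Phgdh and to Psat1. Other named genes were chosen after their values were seen. Promoter sequences are from RefSeq (GRCm38.p6).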

Additional observations from a re-analysis of the deposited data

How the results depend on the processing

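Over 10 alternatives, 335 of 359 values of 36 named genes kept their direction and their side of the threshold, 11 passed it where they had not, and 13 changed sign. As 0 of these genes were called by limma, none could lose a call. The 11 were 10 genes under limma-voom and Phgdh without KO replicate 1 (−1.13). With 1 library left out 7 of the 36 genes changed sign and 17 more moved by over 1.5 times. The number of members called lower was 0, but 3 under limma-voom, and 0 to 1 with each library left out in turn. Pathway genes called lower went from 0 to 6 and called higher from 0 to 1 under limma-voom. The members' median difference (−0.13) ran from −0.28 without KO replicate 1 to −0.090 without KO replicate 2. Since limma called none of the 36 genes, a sign change could fall only in a gene that was not called. With the libraries shifted to the same median Shmt1 was at −0.0063, Mthfd1l at −0.012 and Atf4 at −0.030, and Atf4 was at −0.013 under limma-voom. With 1 library left out Psph ran from −0.26 to 0.17, Shmt1 from −0.15 to 0.20, Mthfd1l from −0.024 to 0.069, Gnmt from −0.46 to 0.021, Aldh1l1 from −0.0013 to 0.29, Mpst from −0.018 to 0.26 and Atf4 from −0.10 to 0.11. These fits compare a single library of 1 group with 2 of the other and assume that it varies like them. With the replicate number as a block (replicate block) 0 members and 0 pathway genes were called, as without it; deviations of same-numbered libraries had a correlation of 0.009 across genes, so the numbers were not taken as pairs. A pseudocount of 0.1 and no filter on level changed no call or sign of a named gene. With no filter limma called 0 of all 16442 genes; after that was seen, the fit was repeated without the 236 genes at 0 in every library, and 10 of 16206 were lower and 22 higher. The filtered fit called 48 lower and 71 higher, against 2 to 14 and 4 to 50 with 1 library left out, 28 and 45 with the median shift, 26 and 40 with the block, and 320 and 359 under limma-voom. The causes of these changes were not tested.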
